A study of Oreolalax rhodostigmatus with 13 samples.

Results

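A small set of assembled transcripts (unigenes) stood at its lowest level in *O. rhodostigmatus* tadpoles taken from the dark and was higher in every tadpole exposed to light, after 4 h as well as after 30 h. The set held 30 of the 249088 unigenes of the series. Its members were chosen by their expression values themselves, in units of FPKM (fragments scaled for transcript length and for the reads mapped in a library). A unigene had to be above 0 in all 13 libraries, with a mean of at least 1, and its mean after 30 h had to lie between 0.67 and 1.5 times its mean after 4 h. These demands left 13188 unigenes. A score was then formed as the lowest exposed value divided by the highest control value, and the 30 unigenes with a score above 1 (0.227% of the 13188) are the members. The rule allowed up to 150. In the opposite direction, with every control above every exposed library, 46 of the 13188 unigenes (0.349%) were found. Since the rule used all 13 values of each unigene, levels and differences of the members are given as a description.

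The libraries came from wild tadpoles at Gosner stage 25, collected together in 1 cave. Controls were 4 tadpoles killed at collection in the dark. A further 6 were killed after 4 h in light (short-term exposed) and 3 after 30 h (long-term exposed). Exposed tadpoles were held in a cage at the cave entrance, with a lamp at night, so that light, time of day and captivity cannot be told apart. Each library was made from a single tadpole, whose dorsal skin, liver, eyeballs and a piece of tail were combined in 1 tube according to the methods. The labels name skin, eyeball and liver. A higher value in such a mixture can come from more RNA per cell or from more cells of a type, and these cannot be told apart.

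Amphibian skin darkens by 2 routes. Melanosomes, the melanin-filled organelles of pigment cells, can be dispersed through the cell within hours, and more melanin can be made by tyrosinase and related enzymes. Hormones act on both, melanocortins by raising cyclic AMP in the pigment cell, and adrenaline in many cases by lowering it. Of the 30 unigenes, 2 had a protein name in the annotation held here, and 1 of these names a protein of known function. Names were held for 1626 unigenes of the series and for 54 of the 13188 that passed the filters, so most members are given by their assembly identifier alone. All 30 members carry the prefix Cluster-29057. The same prefix is found in 98.9% of the 13188 unigenes and 69.7% of the series, so it does not set the members apart. No sequence of the members was used here.

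Libraries differed in how much they recorded. Unigenes above 0 numbered 112990 to 134725 in controls, 91929 to 136138 in the short-term exposed group and 140196 to 147363 in the long-term exposed group. FPKM keeps no counts, so the number of reads behind a single value is not known here. The paper summarizes the sequencing quality of its libraries in a supplement, which was not used here. Short-term exposed replicate 5 stood apart. It had the fewest unigenes above 0, and its median FPKM over the 13188 unigenes was 2.22, against 3.13 to 4.78 in the other 12 libraries.

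The member with a known function was the alpha-2B adrenergic receptor, Cluster-29057.76633, named after a protein of *Xenopus tropicalis*. Receptors of this class bind adrenaline and noradrenaline and couple to inhibitory G proteins that lower cyclic AMP, and in fish melanophores alpha-2-adrenergic signalling gathers melanosomes at the cell centre. Control replicates 1 to 4 had an FPKM of 0.16, 0.95, 0.67 and 0.12. The short-term exposed tadpoles ranged from 1.29 to 2.22 with a median of 1.58. The long-term exposed tadpoles had 2.16, 2.03 and 1.94. Every exposed tadpole lay above every control, and the 3 long-term values fell inside the short-term range. In FPKM as deposited, the receptor had the narrowest range of the 30 members over the 9 exposed tadpoles. Its highest exposed value was 1.72 times the lowest. The receptor also had the widest range among the controls, 7.92-fold, where values were low, from 0.12 to 0.95. These ranges, and the place of the long-term values within the short-term range, depend on the scale of the libraries. They are not given after scaling. The mean was 0.475 ± 0.404 (SD, n = 4) in controls, 1.62 ± 0.333 (SD, n = 6) after 4 h and 2.04 ± 0.111 (SD, n = 3) after 30 h. On the log2(FPKM + 0.1) scale, the mean of both exposed groups was 2.04 above the controls (standard error 0.48). The receptor was not among the 7 members called higher by limma in this comparison, in which 0.275% of all unigenes were called. The rule had used this contrast. This unigene belongs to the study's own list of light-inducible unigenes, which was chosen on these samples. After scaling the libraries by the median ratio over unigenes, its score fell to 0.945, so that the lowest exposed value no longer cleared the highest control.

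The other named member was Cluster-29057.155026, an LOC495519 protein of *Xenopus laevis*. Its controls had FPKM values of 1.74, 2.38, 1.91 and 2.31. The short-term exposed values ran from 2.57 to 4.65 (median 3.12), and the long-term values were 5.07, 5.21 and 4.36. Of all members it had the largest mean after 30 h relative to 4 h, 1.44-fold, near the upper edge that the rule allowed. After scaling its score fell to 0.739, so that control and exposed libraries overlapped. It is in the study's light-inducible list and in its stricter core list. For the core list, the paper asked for a rise from control to short-term and again from short-term to long-term exposure. Here the log2 difference of this member between 30 h and 4 h was 0.54 (standard error 0.37) by limma, and it was not called. Another member in the light-inducible list, Cluster-29057.73685, has no name. Its FPKM was 0.47 to 0.73 in controls, 0.99 to 1.71 after 4 h and 1.49 to 2.34 after 30 h.

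**Figure D1:**
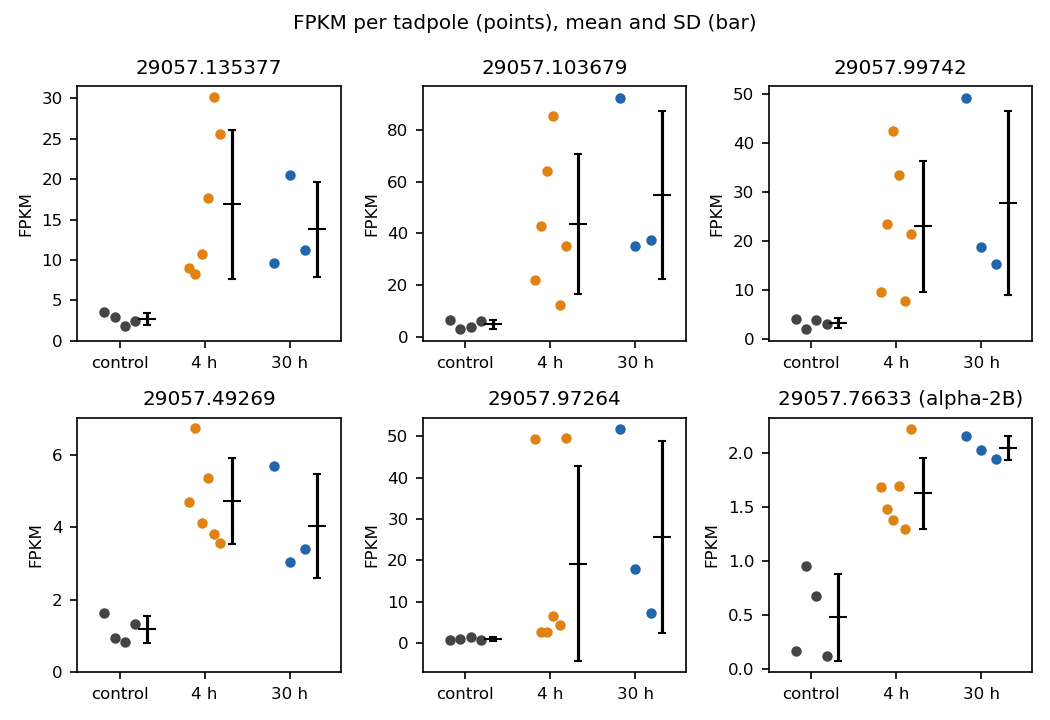
FPKM of 6 unigenes in control tadpoles and after 4 h and 30 h of light, with each tadpole as a point and the mean and SD as a bar. The first 5 panels are the unigenes with the highest scores and the sixth is the alpha-2B adrenergic receptor, whose exposed tadpoles lie between 1.29 and 2.22, above the highest control at 0.95.

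In FPKM as deposited, the clearest gap between dark and light belonged to Cluster-29057.135377, with a score of 2.34. Its controls had 3.53, 2.95, 1.80 and 2.50. After 4 h it ranged from 8.25 to 30.12 with a median of 14.24, and after 30 h it stood at 9.70, 20.53 and 11.21. The lowest exposed tadpole was thus more than 2-fold above the highest control, which held for no other member before scaling. After scaling the libraries its score was 2.07. Cluster-29057.103679, Cluster-29057.99742 and Cluster-29057.42557 then had higher scores, 3.59, 2.82 and 2.25.

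Cluster-29057.103679 and Cluster-29057.99742 came next, with scores of 1.95 and 1.90. The first had 6.33, 2.78, 3.87 and 6.03 in controls, 12.37 to 85.41 after 4 h (median 39.04) and 92.62, 34.96 and 37.38 after 30 h. The second had 4.04, 1.90, 3.81 and 3.03 in controls, 7.66 to 42.44 after 4 h (median 22.36) and 49.27, 18.73 and 15.22 after 30 h. In both, the lowest exposed value was that of short-term exposed replicate 5 and the highest that of long-term exposed replicate 1. Their exposed means were 9.97 and 7.68 times the control means. Of the members with a score of at least 1.5, Cluster-29057.49269 had the least spread among exposed tadpoles, 2.20-fold. Its controls had 1.64, 0.95, 0.83 and 1.34, its short-term exposed tadpoles 3.58 to 6.74 (median 4.42) and its long-term exposed tadpoles 3.06 to 5.69, with replicate 1 the highest of the 3.

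Cluster-29057.147184 and Cluster-29057.69777 were higher after 4 h than after 30 h by their means. Controls of the former had 4.26, 3.44, 3.17 and 4.62, short-term exposed tadpoles 8.97 to 22.67 (median 14.14) and long-term exposed tadpoles 8.00, 9.53 and 13.67. Its ratio of long-term to short-term mean, 0.684, was the lowest in the set and near the edge of the rule. The latter had 17.94, 14.67, 12.44 and 26.25 in controls, 45.77 to 137.18 after 4 h (median 77.47) and 40.58, 80.26 and 58.65 after 30 h. Cluster-29057.118870 had a smaller step, with 5.92, 11.61, 12.70 and 9.19 in controls, 18.13 to 43.43 after 4 h (median 22.82) and 19.73, 21.93 and 22.14 after 30 h.

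The largest ratios of exposed to control mean came from unigenes that varied widely between exposed tadpoles. Cluster-29057.97264 had a ratio of 21.9. Its controls had 0.75, 0.94, 1.53 and 0.67. Of the exposed tadpoles, short-term exposed replicates 1 and 6 and long-term exposed replicate 1 had 49.27, 49.70 and 51.74, while short-term exposed replicates 2 and 3 had 2.66 and 2.65. The median after 4 h was 5.41, and the other long-term values were 17.97 and 7.18. The exposed tadpoles thus fell far apart within both groups, with a 19.5-fold range. Cluster-29057.42557, with a ratio of 12.1, had 0.75, 0.31, 0.58 and 0.28 in controls, 0.92 to 10.71 after 4 h (median 5.89) and 4.07, 10.87 and 2.95 after 30 h. Short-term exposed replicate 5, at 0.92, was the only exposed tadpole of this unigene below 2.95. Cluster-29057.129363, with a ratio of 11.1, had 0.20, 0.36, 0.69 and 0.33 in controls, 1.00 to 12.50 after 4 h (median 2.66) and 2.07, 9.13 and 1.66 after 30 h. Across the set, 3 members had an exposed mean at least 10 times the control mean, 11 at least 4 times and 27 at least 2 times. The smallest ratio was 1.62 and the median 3.22. Among all 13188 unigenes the median ratio was 1.01, and 2.81% reached 2-fold, a contrast that the rule itself fixed.

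The most abundant member had one of the smallest steps. Cluster-29057.117333 had 193.97, 187.22, 188.44 and 161.55 in controls, 202.40 to 525.25 after 4 h (median 272.84) and 269.66, 386.52 and 259.76 after 30 h. The controls were close together, at 183 ± 14.5 (SD, n = 4), and short-term exposed replicates 6 and 1, at 202.40 and 202.78, were less than 5% above the highest of them. It was one of 4 members with a mean FPKM of at least 20, while 18 had a mean under 5 and 8 had no control as high as 1. The smallest step of all was that of Cluster-29057.117625, with 4.96, 4.93, 5.20 and 6.86 in controls, 7.09 to 12.97 after 4 h (median 8.23) and 7.60, 9.19 and 8.70 after 30 h. Control replicate 4 alone brought the groups near to each other in this unigene.

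The border of the set is narrow. Besides Cluster-29057.117625 with a score of 1.03, the members just inside were Cluster-29057.80082 (1.02) and Cluster-29057.149608 (1.00). In Cluster-29057.149608 the lowest exposed value, 5.01, was set against a highest control of 4.99. The unigenes just outside were Cluster-29057.159269 (0.987), Cluster-29057.124154 (0.984) and Cluster-29057.75663 (0.968). In Cluster-29057.159269 short-term exposed replicate 1 had 0.73 and control replicate 1 had 0.74, while the other exposed tadpoles had 1.01 to 2.57. In all, 16 unigenes had a score above 0.9 and up to 1.

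**Figure D2:**
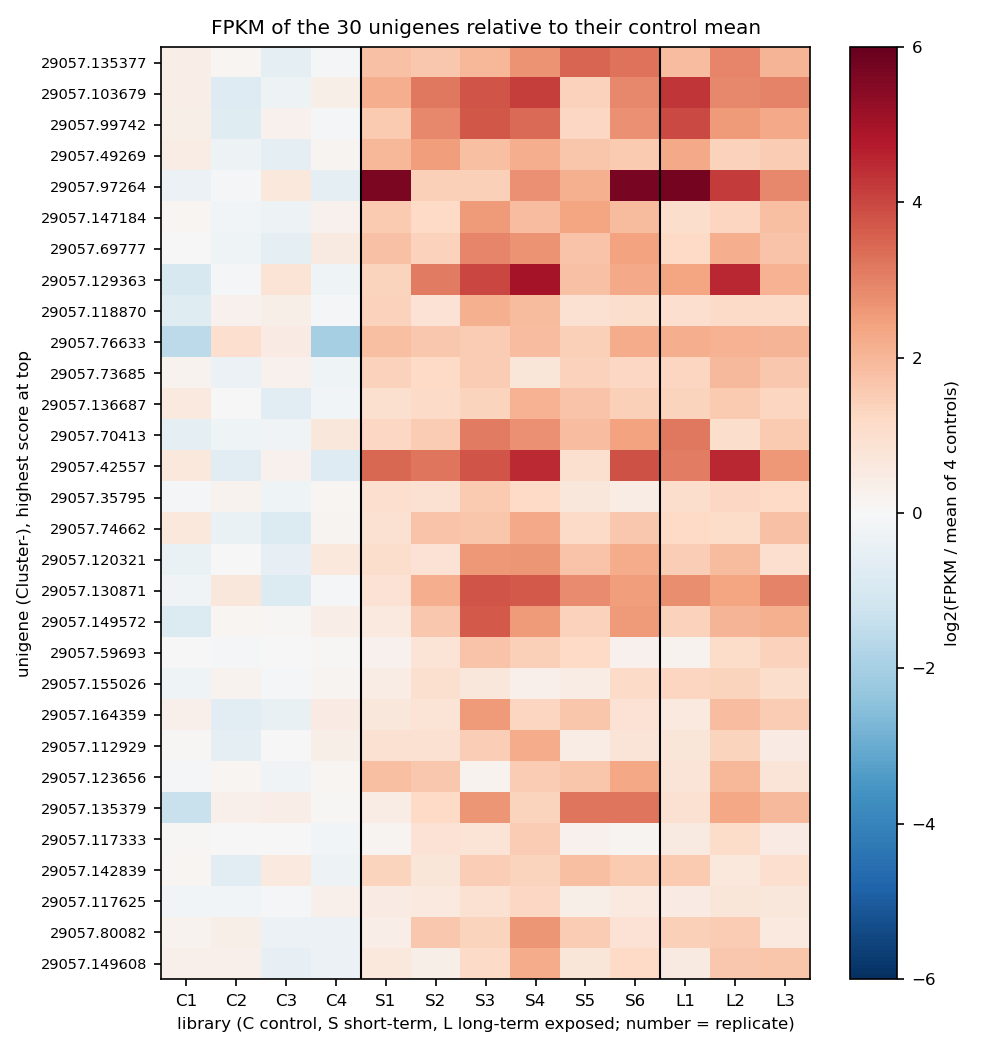
Heat map of log2(FPKM divided by the mean of the 4 controls) for the 30 members, 1 row each with the highest score at the top, over the 13 libraries (C control, S short-term and L long-term exposed). Every exposed value is above the control mean of its row. The step is slight in Cluster-29057.117333, at 202.40 in short-term exposed replicate 6 against a control mean of 183. It is largest in Cluster-29057.97264, at 51.74 in long-term exposed replicate 1 against a control mean of 0.973.

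Cluster-29057.80082 ranged from 1.49 to 2.46 in controls, 2.50 to 12.09 after 4 h and 2.92 to 5.56 after 30 h. The 13 members not given above had control means between 0.417 and 6.42 and exposed means 2.03 to 7.31 times as high. Of all 30, 20 had a lower mean after 30 h than after 4 h and 10 a higher one, with a median ratio of 0.937 inside the window that the rule set. In 17 members all 3 long-term values lay within the range of the 6 short-term values. In 23 the highest exposed value was in a short-term library. The highest value of a member was a median of 2.14 times the lowest over the 4 controls, 3.46 times over the 6 short-term exposed tadpoles and 1.88 times over the 3 long-term exposed tadpoles. For all 13188 unigenes these medians were 2.17, 4.41 and 1.74. A range grows with the number of tadpoles, so the groups are not compared by it.

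The gap between dark and light in a member was set by its lowest exposed and its highest control library. The lowest exposed value of a member was in short-term exposed replicate 1 for 7 members and in replicate 5 of that group for 6, and in long-term exposed replicate 3 for none. Over all 13188 unigenes, replicate 5 held the lowest exposed value in 42.4% and replicate 1 in 21.2%. Among controls, replicate 4 was highest in 10 members and replicate 1 in 9, beside 48.1% and 25.6% of all 13188. The number of unigenes that met the rule changed when single libraries were left out. Leaving out a library cannot lower a score, so some rise is built in. A member can then be lost only through the ratio window or the demand on the mean. It was 97 without control replicate 4, 64 without short-term exposed replicate 5, 55 without short-term exposed replicate 1, 50 without control replicate 1 and 47 without control replicate 3, and between 26 and 43 without any other. Without short-term exposed replicates 1 and 5 together, an exclusion chosen after the values were seen, it was 150, and without replicate 1 of both exposed groups, chosen likewise, it was 97. The smallest share of the 30 members kept was 20, without long-term exposed replicate 2.

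The balance of both directions changed too. With all 13 libraries 30 unigenes were lowest and 46 highest in the dark, but 97 against 77 without control replicate 4 and 64 against 57 without short-term exposed replicate 5. After scaling by the median ratio over unigenes above 0 in every library, 55 were lowest and 48 highest in the dark, and 20 of the 30 members were among the 55. Cluster-29057.103679 then had the highest score of the members, 3.59, and Cluster-29057.135377 had 2.07. Of the other members described, Cluster-29057.117333 fell to 0.851, Cluster-29057.80082 to 0.898 and Cluster-29057.149608 to 0.743, and Cluster-29057.147184 left the ratio window. The scaling factor of short-term exposed replicate 5 was -0.69 on the log2 scale, and those of the other libraries lay between -0.22 and 0.40.

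**Figure D3:**
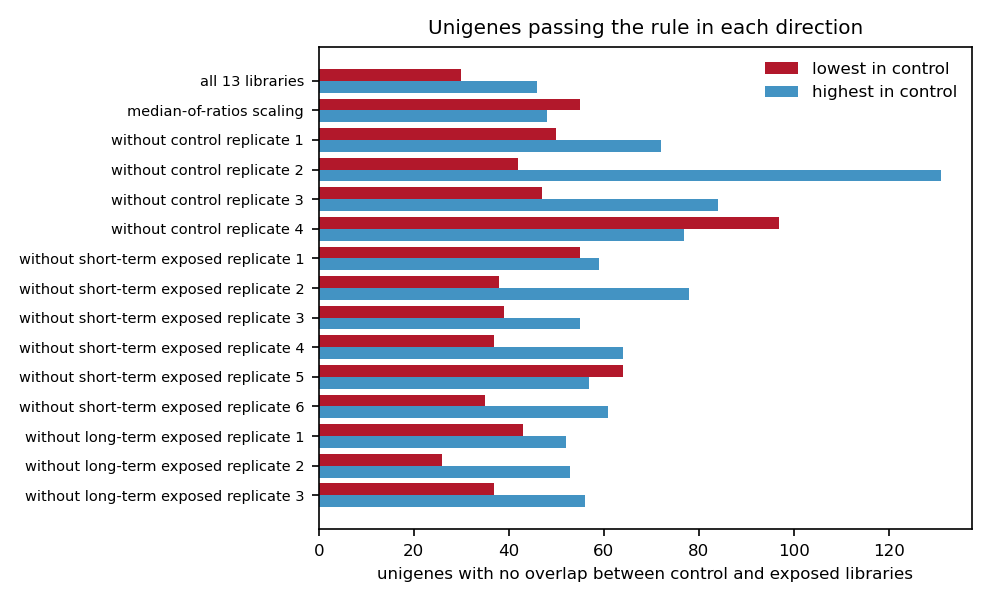
Number of unigenes whose control and exposed libraries did not overlap, lowest in control (red) or highest in control (blue), with all 13 libraries, after scaling and without each library. With all libraries the counts are 30 and 46, and without control replicate 4 they are 97 and 77.

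To look at values that the choice had not used, the rule was applied to 12 libraries and the chosen unigenes were read in the library left out. Chosen unigenes lay beyond the other group more often than all unigenes that passed the filters in each of the 13 cases. They had been picked for low controls and high exposed values in the other 12 libraries. The choice itself therefore favours a higher share than that of all unigenes, with or without an effect of light. The shares are given as a description, and the comparison does not test the members. Without short-term exposed replicate 1, 55 unigenes were chosen and 24 of them lay above every control in that library (43.6%, beside 11.9% of all). For replicate 2 of that group it was 27 of 38 (71.1%, beside 24.9%), for replicate 3 it was 35 of 39 (89.7%, beside 39.8%) and for replicate 4 it was 35 of 37 (94.6%, beside 36%). For replicate 5 it was 31 of 64 (48.4%, beside 8.79%) and for replicate 6 it was 31 of 35 (88.6%, beside 18%). Short-term exposed replicates 1 and 5 thus gave the lowest shares of chosen unigenes among exposed libraries. After scaling, replicates 1 and 2 were lowest (55.7%, beside 26.4% of all, and 57%, beside 20.2%), and replicate 5 had 69.7%, beside 34% of all.

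The long-term exposed libraries gave similar shares to each other. When left out, replicate 1 had 37 of 43 chosen unigenes above every control (86%, beside 9.95% of all), replicate 2 had 23 of 26 (88.5%, beside 30.9%) and replicate 3 had 32 of 37 (86.5%, beside 23.3%). A left-out control had to lie below 9 libraries rather than above 4, so its shares are not comparable with those of exposed libraries. Below every exposed library lay 31 of 50 in control replicate 1 (62%, beside 5.41%), 32 of 42 in replicate 2 (76.2%, beside 10.4%), 31 of 47 in replicate 3 (66%, beside 7.12%) and 32 of 97 in replicate 4 (33%, beside 3.52%). The chosen unigenes of the 13 cases overlap, and their values share the same tadpoles, so the cases are not independent of each other. After scaling, the shares of chosen unigenes were 55.7% to 90% in exposed libraries and 46.7% to 67.1% in controls, above those of all unigenes in each of the 13. In the left-out exposed libraries, the median ratio of a chosen unigene to its control mean was 1.15 to 4.37, beside 0.531 to 1.21 for all unigenes. The low control means were part of the choice here too.

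**Figure D4:**
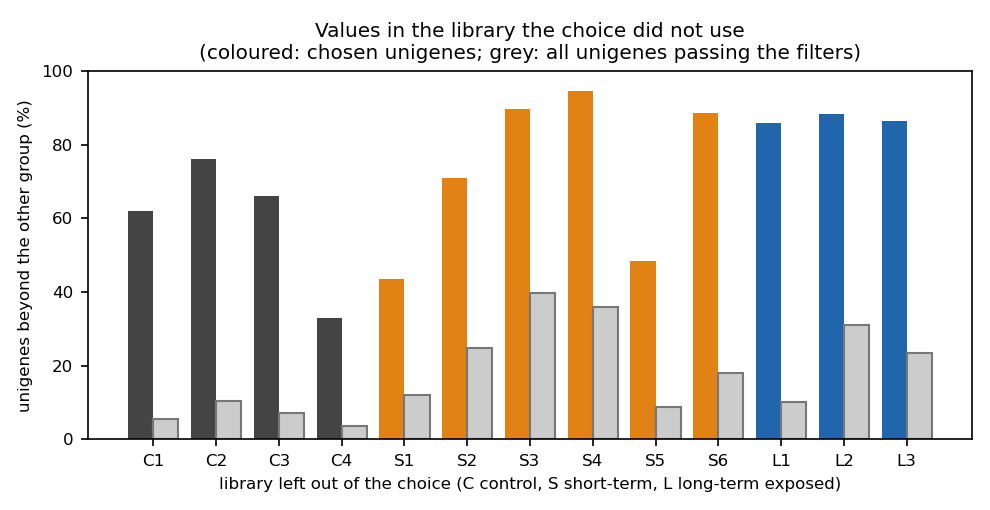
Percent of unigenes beyond the other group in the library that the choice did not use: above every control for an exposed library, below every exposed library for a control. Coloured bars are the unigenes chosen on the other 12 libraries, grey bars all unigenes passing the filters. The coloured bar is the higher one in each library, from 33% in control replicate 4 to 94.6% in short-term exposed replicate 4. The choice on the other 12 libraries favours this order in advance.

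Across the whole table, limma compared the mean of both exposed groups with controls on log2(FPKM + 0.1). Of 147192 unigenes tested, 405 (0.275%) were called higher at a Benjamini-Hochberg adjusted p under 0.05, and 7 of the 30 members were among them. The rule had used this contrast, so nothing is read from the 7. For short-term exposed against control, 2 members were called higher (0.0408% of all unigenes), and for long-term exposed against control 4 (0.975% of all). Between the exposed groups 0 members were called (3.05% of all, in either direction), and 0 had an unadjusted p under 0.05, in a contrast that the window of the rule had held small. The share over all unigenes was 0.678%, 0.375% and 0.372% without long-term exposed replicates 1, 2 and 3. On untransformed FPKM, 1 member was higher after 30 h than after 4 h at a limma unadjusted p under 0.05, as were 20650 of all unigenes. With no filter on low values it was also 1, beside 28335 of all unigenes. Calls of the 7 changed with single libraries, and the share over all unigenes fell in the same settings. Left were 1 without control replicate 2 or 3 (0.103% and 0.105% of all) and 2 without control replicate 4 (0.13%). Without short-term exposed replicate 3 or 6, 4 were left (0.213% and 0.227%). Without long-term exposed replicate 1, 2 or 3, 0 were left (0.00143%, 0.00362% and 0.0029%). There 25 to 30 members had a limma unadjusted p under 0.05, as did 5538, 8175 and 8333 of all unigenes in the same direction. For short-term exposed against control, 14 members were called without short-term exposed replicate 1, where the calls over all unigenes also rose, from 60 to 2662 (1.87% of 142278). There were 4 without replicate 5 (0.051% of all), and 1 without control replicate 4 or long-term exposed replicate 2 (0.0667% and 0.0377% of all). There were 0 without control replicates 1, 2 or 3, short-term exposed replicates 3, 4 or 6 or long-term exposed replicate 3. In those settings 0.0227% to 0.037% of all unigenes were called. There 23 to 29 members had a limma unadjusted p under 0.05, as did 6845 to 8331 of all unigenes in the same direction. The rule had used this contrast, so nothing is read from these members. For long-term exposed against control, 0 were called without long-term exposed replicate 1 (0.267% of all unigenes). By limma's unadjusted p under 0.05, 22 members were higher in that setting, as were 9097 of the 140011 unigenes tested. Without replicate 2 or 3 of that group 1 was called (0.179% and 0.228% of all). Without control replicate 2 or 4 it was also 1 (0.67% and 0.749% of all), and without control replicate 3 it was 2 (0.781% of all). The share over all unigenes thus fell as well.

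The rule did not ask how members varied together among exposed tadpoles. It did use their exposed values, through the lowest value and the ratio of the means, so the p-values below are not free of the choice. Over the 9 exposed libraries, 435 pairs of members were compared by their log2 FPKM, a measure added after the values were seen. Cluster-29057.103679 and Cluster-29057.99742 followed each other most closely, with Pearson's r = 0.956 (exact permutation p = 0.000138, adjusted p = 0.0324 over the 435 pairs) and Spearman's rho = 0.933 (exact permutation p = 0.00075, adjusted p = 0.326). Without the 2 tadpoles farthest from the median, r was 0.911, and among the 6 short-term exposed tadpoles it was 0.954. The second pair joined Cluster-29057.129363 and the abundant Cluster-29057.117333, with r = 0.935 (exact permutation p = 0.000149, adjusted p = 0.0324) and rho = 0.883 (exact permutation p = 0.00308, adjusted p = 0.547). Its r was 0.844 without the 2 farthest tadpoles. These were the only pairs with an adjusted p under 0.05 by Pearson's r, and after scaling the libraries none was left. By exact permutation test, the first pair then had r = 0.934 (adjusted p = 0.179) and the second r = 0.685 (adjusted p = 0.628). Taking all pairs, the median r was 0.238 over their pairs and 0.221 over all pairs of the 13188 unigenes, and r reached 0.9 in 3 member pairs (0.69%) beside 0.838% of all pairs. After scaling, the medians were 0.226 and -0.005, and r reached 0.9 in 3 member pairs (0.69%) beside 0.271% of all pairs.

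**Figure D5:**
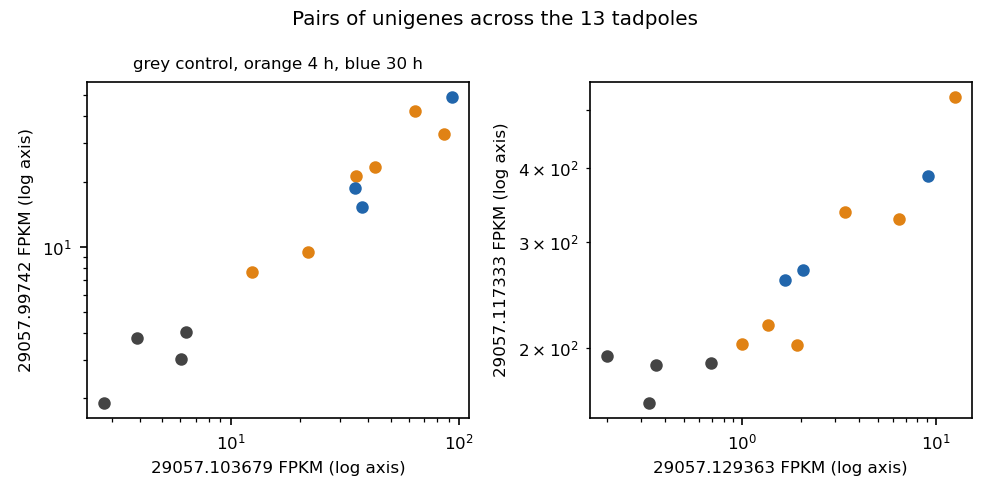
FPKM of both pairs of members with the closest relation in the 13 tadpoles, each point a tadpole and both axes logarithmic (grey control, orange 4 h, blue 30 h). The r values over the exposed tadpoles are 0.956 on the left and 0.935 on the right, and after scaling the libraries 0.934 and 0.685.

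No unigene of the study's pigment gene lists was a member. Of the 13 unigenes behind the study's melanin and melanophore entries, 16 MITF unigenes, 23 behind the pigment dispersion entries and 12 pteridine and carotenoid unigenes, 0 were members. Only 3 of them passed the filters, all in the pteridine and carotenoid list, and 0 had a score above 1 in either direction. Of the 145 growth factor-related unigenes, 2 passed the filters and 0 were members. The study's light-inducible list held 3 that passed the filters, and those 3 are the members given above.

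The tissue markers with a name held here stood apart mostly after 30 h. Names came in part from the study's lists of unigenes that it chose on these samples, such as the light-inducible list. These markers are therefore no unbiased measure of tissue composition. The members were level between 4 h and 30 h by their rule, so their pattern is not set against that of the markers. The summed FPKM of 8 unigenes named for hepatocyte proteins was 854 to 2177 in controls, 542 to 2493 after 4 h and 8129 to 12021 after 30 h. The 7 melanophore unigenes summed to 3.00 to 13.2 in controls, 6.73 to 17.9 after 4 h and 24.0 to 53.5 after 30 h. The 4 epidermal unigenes overlapped between all groups (11.0 to 36.1, 5.15 to 43.5 and 18.95 to 45.3), and the 4 muscle unigenes in controls overlapped with both exposed groups (6.02 to 12.9, 4.19 to 9.73 and 12.5 to 23.1). A single lens crystallin stood at 0 to 1.04, 0.66 to 2.15 and 6.77 to 7.83, and a single retinal unigene at 0.96 to 2.44, 0.54 to 2.10 and 3.44 to 5.49. Names for erythrocyte markers matched no unigene. Only 1 of the marker unigenes, an epidermal one, passed the filters of the rule, so the others could not have been members. None of the marker unigenes was a member, and the part of tissue composition in the members' levels was not tested.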

How the data were processed

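The authors deposited FPKM values per unigene for 13 libraries, rounded to 2 decimals. Reads were checked with FastQC 0.10.0, filtered for quality and assembled over all libraries with Trinity. The aligner and counter were not given in the sources used here. The labels and the methods name different HiSeq models. Unigene names came from the parts held of the study's annotation. The members and lists were chosen with earlier results of these data known. For tests over all unigenes, log2(FPKM + 0.1) was fitted with limma 3.58.1 in R 4.3.3 (3 groups, mean-variance trend) for unigenes that reached an FPKM of 0.3 in 3 libraries or more. Of the code, only the limma comparison of both exposed groups with controls was tested on simulated data. Correlations used all pairings of the 9 exposed libraries (Python 3.11.15, SciPy 1.17.1, pandas 2.3.3, numpy 2.4.6, statsmodels 0.14.6, matplotlib 3.10.9). Unigenes described singly were members with a protein name, the 10 highest scores, the 5 highest means, the 5 largest ratios, and 3 on either side of the border. Cluster-29057.73685 was added after its values were seen. Alternatives were other pseudocounts, filters, scaling, the untransformed scale, the replicate number as a block, other limits in the rule and leaving out libraries.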

Additional observations from a re-analysis of the deposited data

Results flagged for a closer look

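Among 34 groups of 4 or 6 tadpoles of the 17 members described singly, 3 held a tadpole far from the others, where chance marks about 1 in 20. Control replicate 4 had an FPKM of 6.86 for Cluster-29057.117625, against 4.93 to 5.20 in the other controls. Short-term exposed replicate 4 had 12.09 for Cluster-29057.80082 and 18.68 for Cluster-29057.149608, the highest value of its group in both. The part of that library in other results was not tested beyond leaving it out. All 3 flags used FPKM as deposited and were not sought again after scaling. The log2 scaling factors were 0.394 for control replicate 4 and 0.325 for short-term exposed replicate 4.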

How the results depend on the processing

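The number of unigenes meeting the rule (30) was 55 after median-of-ratios scaling, 16 with a narrower ratio window, 79 without a window, 12 with a mean FPKM of at least 5, 150 without short-term exposed replicates 1 and 5, 97 without replicate 1 of both exposed groups, and 26 to 97 without single libraries. Unigenes called higher in exposed tadpoles by limma (405) were 225 with a pseudocount of 0.01, 809 without a filter, and 2 to 502 without single libraries, the lowest being 2, 5 and 4 without long-term exposed replicates 1, 2 and 3, followed by 148, 149 and 182 without control replicates 2, 3 and 4. Those called lower (102) were 61 with a pseudocount of 0.01, and 19 to 404 without single libraries, the highest without control replicate 1 and 19 to 21 without any long-term exposed replicate. Members called higher over both exposed groups (7, beside 0.275% of all unigenes) were 0 on the untransformed scale (0.333% of all). Without single libraries they were 0 to 7 (0.00143% to 0.353% of all). Members called after 4 h (2, beside 0.0408% of all) were 0 with a pseudocount of 1 (0.0285%) or on the untransformed scale (0%). They were 5 with FPKM of at least 1 in 3 libraries (0.105%) and 4 after scaling (0.082%). Without short-term exposed replicates 1 and 5 they were 11 (0.896%), and without replicate 1 of both exposed groups 14 (3.22%). Without single libraries they were 0 to 14 (0.0227% to 1.87%). The calls over all unigenes thus moved as well. Members called after 30 h (4, beside 0.975% of all) were 2 on the untransformed scale (2.03%) and 0 without replicate 1 of both exposed groups (0.297%). Without single libraries they were 0 to 5 (0.179% to 1.03%). Pairs of members with an adjusted p under 0.05 (2) were 0 after scaling. The causes of these changes were not tested.

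The replicate number names separate tadpoles and pairs nothing: deviations of the 10 same-numbered pairs of libraries correlated at -0.11 to 0.02. With the replicate number as a block, 0 unigenes were called higher and 0 lower in exposed tadpoles, so 0 members over both exposed groups. After 4 h 0 members were called (0.00136% of all unigenes) and after 30 h 1 (0.352% of all). In the comparison of both exposed groups with controls, 6968 unigenes were higher at a limma unadjusted p under 0.05. All 323 values of the 17 members described singly, over 19 alternatives on a log scale, kept a positive difference, a direction that the choice of members favours. Of them 133 belonged to the 7 members called with all libraries, and 59 of the 133 were no longer past the threshold. Each of the 7 lost its call without at least 1 single library.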
